A study of Homo sapiens with 9 samples.

Results

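Of the 96852 SF3B1 binding sites in the deposited list, 638 lay in transcribed pseudogenes, which was 0.659% of the list (95% Wilson interval 0.610% to 0.712%). A site was taken when its centre fell in a RefSeq gene of the biotype transcribed pseudogene and in no protein-coding and no long non-coding RNA gene. Protein-coding genes held 93942 sites, long non-coding RNA genes outside them held 1717, and pseudogenes not annotated as transcribed held 39 outside the other classes. The 638 sites fell in 127 of the 1268 transcribed pseudogenes of the gene table. Both the sites and the genes are given in GRCh38 coordinates.

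The data came from iCLIP, in which ultraviolet light links a protein to the RNA it touches and sequencing marks the linked nucleotides. The study used K562, an established human leukaemia cell line, in 9 libraries: SF3B1 was precipitated in 3 of genotype SF3B1 wt/wt and 2 of genotype SF3B1 K700E/wt, both from Horizon Discovery, and U2AF2 in 4 of genotype SF3B1 wt/wt, from ATCC. All cells were crosslinked at 254 nm with 400 mJ/cm2. Each genotype of the SF3B1 libraries is 1 catalogue line, and nothing in the labels says that replicates came from separate cultures. The only table was the SF3B1 list, which the labels attach to the 3 SF3B1 wt/wt libraries (replicates 2, 3 and 4), so K700E cells and U2AF2 were not analysed here. The track line of the list speaks of reproducibility in all replicates of either condition, so no single site is assigned to a genotype below. The list carries no read number and no value per replicate: the depth is unknown, no spread between replicates can be given, and no comparison below was tested. Intervals cover counting error only, and sites of one gene are not independent.

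The labels call the cells lymphoid, whereas K562 is known as a line from chronic myeloid leukaemia. Of 12 erythroid and K562 genes, 7 held a site, with 121 in the transferrin receptor gene TFRC, 17 in TAL1 and 6 in GATA1. The globin genes HBG1, HBG2 and HBE1 held 0 sites. The lymphoid genes CD79A, CD79B, MS4A1, PAX5 and CD3E also held 0 sites.

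Pseudogenes are copies or remnants of genes that no longer encode the ancestral protein. Processed pseudogenes arise when a spliced messenger RNA is copied back into the genome, and usually lack introns. Duplicated pseudogenes arise with a stretch of chromosome and can keep the introns and splice sites of their parent, and unitary pseudogenes are former genes with no working copy in the genome. SF3B1 belongs to the U2 small nuclear ribonucleoprotein, which binds the branch point of introns before splicing. The gene table gives neither exons nor strand, and no sequence of a transcribed pseudogene was used here.

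A site was found in 10% of the transcribed pseudogenes, against 15.3% of genes of every biotype, 38.8% of protein-coding genes, 2% of long non-coding RNA genes and 0.0897% of the other pseudogenes. These shares are not like for like. Those of 15.3% and 38.8% count any site. Long non-coding RNA genes were counted only with sites outside protein-coding genes, and pseudogenes only with sites outside both classes. The span of many pseudogenes overlaps other genes: 1031 of the 1268 had some span outside protein-coding and long non-coding RNA genes, and 797 had no overlap with either. All sites in any span of a transcribed pseudogene numbered 781, in 150 pseudogenes, of which 81 sites also lay in a protein-coding gene and 62 more in a long non-coding RNA gene. Both sets were left out.

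Pseudogenes with sites were long. Their median span was 28764 nt (quartiles 15175 and 49646), against 7429 nt (quartiles 2154 and 23002) for those without. Below 2 kb, 1 of 267 pseudogenes held a site, which was 0.375% (95% Wilson interval 0.0661% to 2.09%). The share was 3.36% from 2 to 10 kb (1.97% to 5.66%), 15.4% from 10 to 30 kb (12.0% to 19.7%) and 22.0% at 30 kb and over (17.5% to 27.3%). Long non-coding RNA genes went from 0.834% to 4.45% over the same classes, and protein-coding genes from 4.65% to 49.5%. In the 2 longer classes the pseudogenes thus lay between the other classes, with intervals that did not overlap. The classes included pseudogenes wholly inside protein-coding or long non-coding RNA genes, which could hold no counted site. Long non-coding RNA genes likewise lost their sites inside protein-coding genes, and protein-coding genes lost none, so the shares are not fully comparable. Outside those genes the median span was 27216 nt for pseudogenes with a site and 4604 nt for those without. The exception below 2 kb was GLUD1P3, a copy of the glutamate dehydrogenase gene GLUD1, with 2 sites in 1210 nt at chr10:73731090-73731094 and chr10:73731128-73731132. Site numbers were not corrected for transcript abundance, whose part in the result was not tested.

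**Figure D1:**
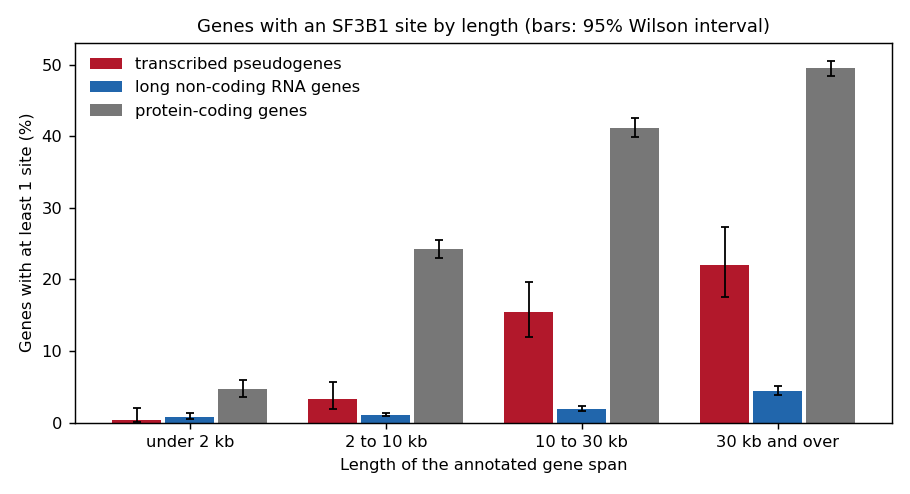
Share of genes with at least 1 SF3B1 site (vertical axis, percent) by length of the annotated span (horizontal axis), for transcribed pseudogenes (red), long non-coding RNA genes (blue) and protein-coding genes (grey); error bars are 95% Wilson intervals. The red bars rise from 0.375% below 2 kb to 22.0% at 30 kb and over, and stay below the grey bars in every length class. Sites inside protein-coding genes are left out of the red and blue bars, and those inside long non-coding RNA genes also out of the red.

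Pseudogenes with a site also had more than 1 RefSeq transcript more often. This was so for 39 of 127, or 30.7% (95% Wilson interval 23.4% to 39.2%), against 178 of 1141, or 15.6% (13.6% to 17.8%), of those without. The shares were not matched for span, which also differed between these groups. The distance to the nearest protein-coding gene was much alike, with medians of 9782 nt with a site and 10746 nt without.

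Sites were unevenly divided among the 127 pseudogenes. The median was 3 sites (quartiles 1 and 6), against 7 in protein-coding genes with a site and 2 in long non-coding RNA genes with one. A single site was found in 36 pseudogenes, 2 to 4 sites in 47, 5 to 9 sites in 24 and at least 10 sites in 20. The 10 pseudogenes with the most sites held 212 of the 638, or 33.2% (95% Wilson interval 29.7% to 37.0%), and the first 20 held 333, or 52.2% (48.3% to 56.0%). Relative to length, the median was 0.101 sites per kb of span, against 0.198 in protein-coding genes and 0.0958 in long non-coding RNA genes. The full span was used, although pseudogene sites inside genes of the other 2 classes were left out. Sites of long non-coding RNA genes inside protein-coding genes were left out as well.

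Of the 20 pseudogenes with the most sites, 9 have a protein-coding gene of the same name. Those without one are described first, apart from SMPD4BP. Throughout, the 5′ and 3′ ends were set by the strand that holds the sites, since the gene table gives no strand.

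ABO held the most sites, 29. It encodes the glycosyltransferase that sets the ABO blood group and is included because the gene table gives it the biotype transcribed pseudogene. It spans 24801 nt at chr9:133250401-133275201, and all of its sites lay on the minus strand. The 12979 nt at its 5′ end held no site. A dense stretch of 24 sites followed at chr9:133257628-133262222, and 5 more sites stood at chr9:133251155-133251205, 754 nt from the 3′ end. These 5 sites made up 2 groups with centres 33.0 nt apart. ABO also had the most site pairs 25 to 45 nt apart, 11, and 17 of its 29 sites belonged to one.

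PTPRVP and TSSC2 followed with 26 sites each. PTPRVP is the human remnant of a receptor tyrosine phosphatase gene that is intact in the mouse. Its sites were spread over 80.5% of its span, chr1:202168051-202189449, on the plus strand, with 4 of them within 50 nt at chr1:202171127-202171176. TSSC2, at chr11:3380961-3409148, showed another pattern on the same strand. Its first 4697 nt of sites, chr11:3381064-3385760, held 18, a stretch of 1015 nt at chr11:3396098-3397112 held 7, and a single site lay near the 3′ end.

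AHSA2P, related to the HSP90 co-chaperone gene AHSA1, held 15 sites in 11508 nt at chr2:61177418-61188925. Its sites were spread over 71.6% of the span, and AHSA1 itself held 4. AFG3L1P, the human remnant of a mitochondrial protease gene, held 12 sites at chr16:89977587-89988843, and its coding relative AFG3L2 held 24. TDH, once the gene of L-threonine dehydrogenase and inactive in humans, held 11 plus-strand sites at chr8:11355003-11364680. The 15366 nt at the 5′ end of TDH held no site. TCAM1P, the remnant of a testicular cell adhesion gene, held 8 sites in 7364 nt. BAGE2, of a family named for a melanoma antigen, held 10 sites in 104778 nt, 7 of them at chr21:10462788-10465013.

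C19orf48P was the densest of all, with 17 sites in 6891 nt, or 2.47 per kb, on the minus strand of chr19:50797704-50804594. It hosts small nucleolar RNAs (snoRNAs), which guide chemical modification of other RNAs and are cut from introns. Of its sites, 12 lay within 100 nt of the genes SNORD88A, SNORD88B or SNORD88C, and 0 lay inside them. Taking the strand of the sites as the direction of transcription, 9 of the 12 were downstream of a snoRNA gene at 19 to 76 nt and 3 were upstream at 15 to 71 nt.

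Each of the snoRNA genes had its own group of sites. SNORD88C, at chr19:50802325-50802421, had 4 sites downstream, at 19, 30, 54 and 76 nt. SNORD88A, at chr19:50799439-50799535, had 3 downstream, at 23, 29 and 52 nt. SNORD88B, at chr19:50799029-50799125, had sites on both sides: downstream at 49 and 58 nt, upstream at 15, 44 and 71 nt. In RPL32P3, a further host, 1 of its 5 sites lay 26 nt downstream of SNORA7B. The other hosts with sites had none close to a snoRNA gene. The nearest site was 1023 nt away in CCT6P3, 1259 nt in SMG1P1, 2618 nt in SMG1P3 and 5948 nt in SMG1P7. In all, the spans of transcribed pseudogenes contained 20 snoRNA genes in 16 pseudogenes. Of these hosts 6 held a site, beside 10% of all transcribed pseudogenes, and this small number was not compared further.

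ZNF767P and ZNF37BP derive from zinc finger genes, the largest family of human transcription factors. ZNF767P held 17 sites at chr7:149547154-149624790 on the minus strand. A single site stood near its 5′ end, 67034 nt without a site followed, and the remaining 16 lay in 5100 nt at the 3′ end. ZNF37BP held 13 sites, 8 of them in 1337 nt near the 5′ end, at chr10:42550538-42551874, and 5 in 2634 nt near the 3′ end. The related coding gene ZNF37A held 5 sites. Of the 29 transcribed pseudogenes with a ZNF symbol, 5 held a site, or 17.2% (95% Wilson interval 7.60% to 34.5%), which includes the 10% of all transcribed pseudogenes. They held 38 sites in all, and ZNF542P came next with 6.

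**Figure D2:**
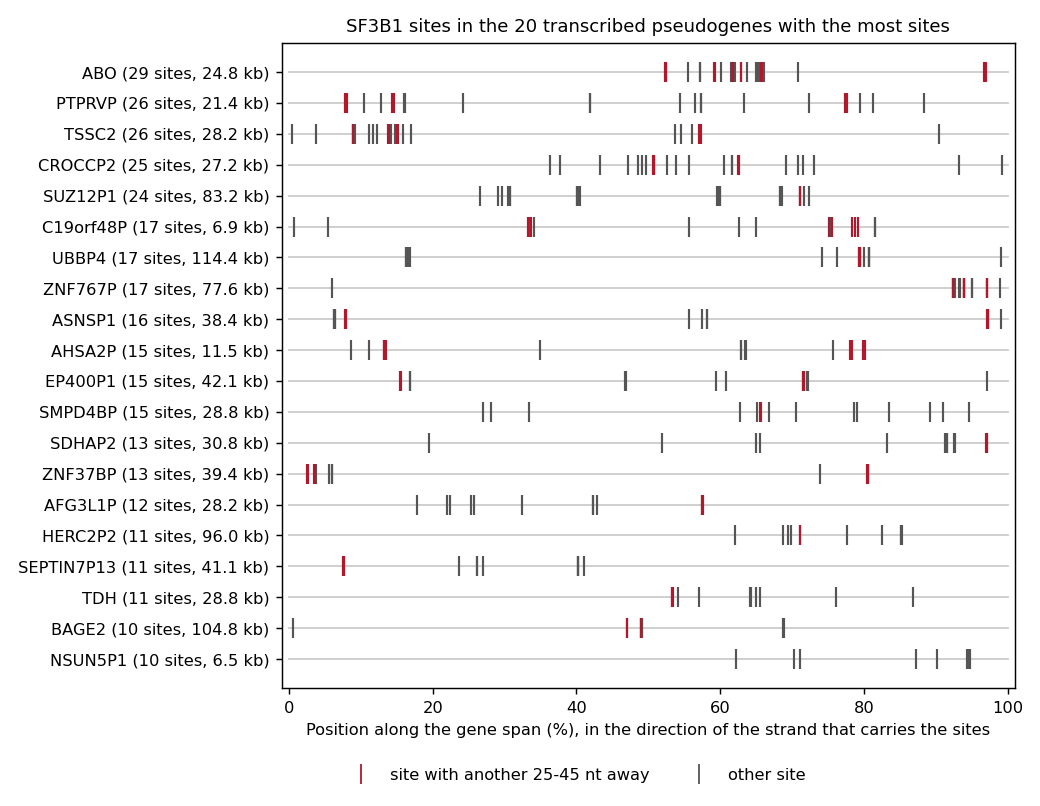
Each row is 1 of the 20 transcribed pseudogenes with the most sites, and each tick is 1 SF3B1 site at its position along the gene span (horizontal axis, percent, read in the direction of the strand that carries the sites); red ticks have another site 25 to 45 nt away, grey ticks do not. The rows run from ABO with 29 sites to NSUN5P1 with 10, and show the 16 sites of ZNF767P crowded at its 3′ end and the empty 12979 nt at the 5′ end of ABO.

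For the remaining pseudogenes the sites in the protein-coding gene of the same name were counted as well, here called the namesake: the symbol without its ending P, LP or P and a number. Of the 127 pseudogenes, 64 had a namesake by this rule. Near-identical copies share sequence, so reads can fit both. How reads that fit several places were treated is not given in the sources used here, and the division of sites between a pseudogene and its parent is uncertain for that reason.

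The namesake held at least 1 site for 50 of the 64, or 78.1% (95% Wilson interval 66.6% to 86.5%). The 64 had 43 different namesakes, and counting each once gave 33, or 76.7% (62.3% to 86.8%). For the 455 pseudogenes with a namesake but no site of their own, the namesake held a site for 301, or 66.2% (61.7% to 70.4%). These 455 had 329 different namesakes, so in both groups some genes were counted more than once. Of all protein-coding genes, each counted once, 38.8% held a site. The intervals for pseudogenes with and without a site overlapped. The pseudogene held more sites than its namesake in 25 of the 64 and fewer in 39. Per kb of span, 26 were denser than the namesake and 38 sparser.

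In 14 pseudogenes the namesake held 0 sites, and these pseudogenes carried 88 sites together. The highest was CROCCP2, a copy of the rootletin gene CROCC, whose protein forms the fibre that anchors cilia. CROCCP2 held 25 sites on the minus strand of chr1:16618256-16645471, 23 of them at chr1:16625584-16635607, while CROCC, 58880 nt long at chr1:16914085-16972964, held 0. A second copy, CROCCP3, held 1 site. ASNSP1, a copy of the asparagine synthetase gene, held 16 sites in 3 stretches on chromosome 8, whereas ASNS on chromosome 7 held 0.

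The copies of SDHA, which encodes the flavoprotein subunit of succinate dehydrogenase in the citric acid cycle, gave the remaining case among the 20, SDHAP2. SDHA, at chr5:218320-268746, held 0 sites, while all 4 transcribed copies held some. SDHAP2 had 13 sites, SDHAP1 had 9, SDHAP4 had 6 and SDHAP3 had 1. SDHAP1 and SDHAP2 lie on opposite strands of chromosome 3, with spans of 30359 and 30833 nt. Read from the 3′ end, SDHAP2 had its last sites at 869, 893 and 906 nt and SDHAP1 at 176, 187, 512 and 522 nt. These distances were counted from the annotated ends of the spans, and the copies were not aligned. Whether the copies hold sites at matching positions was therefore not tested. The SDHA copies were picked after their values were seen.

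Other copies had a namesake with many sites. SUZ12P1, a copy of the Polycomb gene SUZ12, held 24 sites and SUZ12 held 21, or 0.288 and 0.328 sites per kb. The sites of SUZ12P1 formed 4 stretches, at chr17:30731705-30735163 with 6, chr17:30742963-30743253 with 5, chr17:30759215-30759526 with 5 and chr17:30766454-30769863 with 8. Only 1 pair of its sites was 25 to 45 nt apart, the fewest among the 5 pseudogenes with at least 20 sites, where ABO had 11 such pairs, PTPRVP 7, TSSC2 6 and CROCCP2 4.

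EP400P1, a copy of the chromatin remodelling gene EP400, held 15 sites against 90 in EP400. HERC2P2, a copy of a giant ubiquitin ligase gene, held 11 against 81 in HERC2, and PI4KAP2 and PI4KAP1, copies of a lipid kinase gene, held 8 and 5 against 100 in PI4KA. The kinase gene SMG1, which acts in nonsense-mediated decay, held 77, and its copies SMG1P3, SMG1P7 and SMG1P1 held 5, 3 and 2. In these families the working gene held the larger number, but it was also longer. Per kb of span, EP400 had 0.690 sites against 0.357 in EP400P1, and HERC2 had 0.384 against 0.115 in HERC2P2. PI4KA had 0.662 against 0.180 in PI4KAP2 and 0.334 in PI4KAP1, and SMG1 had 0.633 against 0.111 in SMG1P7. Of the transcribed copies, 3 of 6 for SMG1 and 3 of 7 for HERC2 held a site. SMPD4BP, a copy of a sphingomyelinase gene, held 15 sites, 12 of them at chr2:131510863-131520051, and SMPD4 held 11.

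Among the septin and rRNA methyltransferase copies, site numbers varied from copy to copy. SEPTIN7, a gene of the septin cytoskeleton, held 10 sites, and 4 of its 5 transcribed copies held 11 (SEPTIN7P13), 6 (SEPTIN7P14), 5 (SEPTIN7P2) and 3 (SEPTIN7P11), while SEPTIN7P9 held 0. Per kb of span, SEPTIN7P13 had 0.267 sites and SEPTIN7 had 0.0871. NSUN5P1, a copy of the rRNA methyltransferase gene NSUN5, held 10 sites in 6471 nt against 7 in 6311 nt. All 10 lay within 2111 nt that ended 336 nt before the 3′ end of NSUN5P1, and 5 of them formed a tight run of 29 nt at chr7:75416428-75416456. The other copy, NSUN5P2, of the same span, held 1 site. Only 3304 nt of NSUN5P2 lay outside protein-coding and long non-coding RNA genes, against 6432 nt of NSUN5P1. Sites in the rest were not counted, so the 2 numbers are not directly comparable. UBBP4, named for the polyubiquitin gene UBB, held 17 sites in a span of 114402 nt and UBB held 2 in 1967 nt. The sites of UBBP4 lay in a stretch of 5 at chr17:22109358-22109973, in a stretch of 11 at chr17:22175569-22183163 and at 1 further position.

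**Figure D3:**
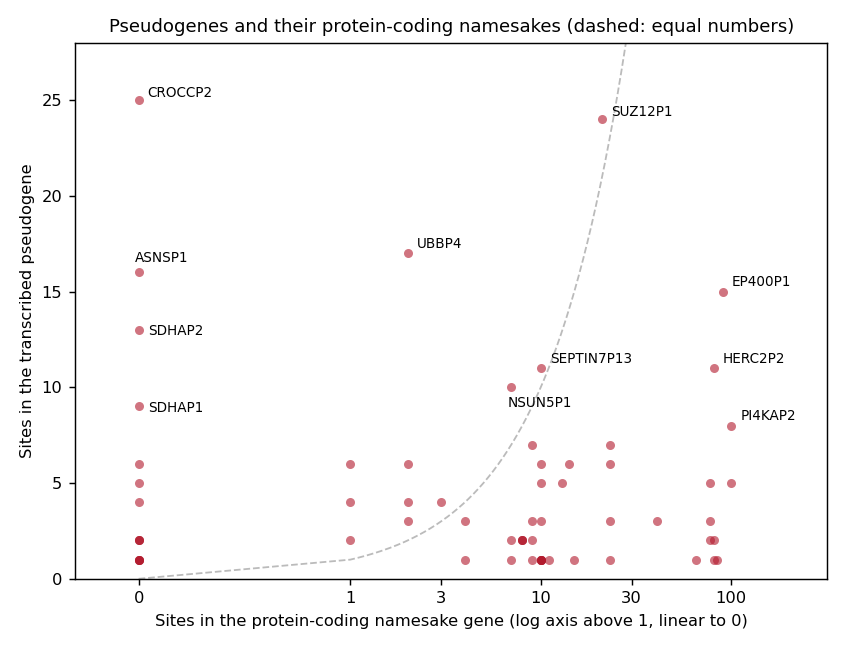
Each point is 1 of the 64 transcribed pseudogenes with sites and a protein-coding namesake; the horizontal axis gives the sites in the namesake (log scale above 1, linear down to 0) and the vertical axis the sites in the pseudogene, and the dashed line marks equal numbers. CROCCP2 (25 sites), ASNSP1 (16) and the SDHA copies sit at 0 on the horizontal axis, while EP400P1 and HERC2P2 lie far to the right with 90 and 81 sites in the namesake.

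Gene families were counted by the start of the symbol. Families spread by segmental duplication had 32 of 144 members with a site (22.2%, 95% Wilson interval 16.2% to 29.7%) and 116 sites, led by CROCCP2, HERC2P2, BMS1P20 and GUSBP1. Their median span was 23232 nt. Ribosomal protein pseudogenes, many of them processed copies, had 1 of 31 with a site, RPL32P3, and a median span of 1041 nt. Pseudogenes listed for splicing factors and related RNA-binding proteins or helicases, among them copies of HNRNPA1, HNRNPK, SRSF3 and SNRPD2 and the DDX11L genes, had 0 of 18 with a site (up to 17.6%) and a median span of 2538 nt. Against the 10% of all transcribed pseudogenes, the interval of the duplicated families lay above, while that of the ribosomal ones, 0.572% to 16.2%, included it. These families also differ in span, and their shares were not corrected for it.

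Distances between sites were measured on one strand within one pseudogene. The median distance between neighbours was 233 nt (quartiles 28 and 1851), against 157 nt in protein-coding genes and 71 nt in long non-coding RNA genes. Neighbours 5 to 12 nt apart made up 17.7% of the distances (95% Wilson interval 14.6% to 21.2%), against 17.2% in protein-coding genes. There were 97 pairs 25 to 45 nt apart and 31 pairs 46 to 66 nt apart, a ratio of 3.13, against 3.58 in protein-coding genes and 2.94 in long non-coding RNA genes. Against the shorter side, 57 pairs were 31 to 41 nt apart and 38 were 15 to 25 nt apart, a ratio of 1.5. It was 2.09 in protein-coding genes and 2 in long non-coding RNA genes, and no interval was taken for this ratio. The mode, after summing over 3 adjacent distances, was 33 nt, with 20 pairs, against 37 nt in protein-coding genes. In bins of 5 nt the local peak was at 35 to 39 nt in both classes. In pseudogenes that bin held 28 pairs, and the bin of 30 to 34 nt held 27. The longer spacing gave 40 pairs 140 to 180 nt apart and 32 pairs 60 to 100 nt apart, a ratio of 1.25, against 1.72 in protein-coding genes and 1.32 in long non-coding RNA genes.

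Fewer sites in pseudogenes had a partner at the short spacing. A partner 25 to 45 nt away was found for 162 of the 638 sites, or 25.4% (95% Wilson interval 22.2% to 28.9%). In protein-coding genes the share was 36.5% (36.2% to 36.8%) and in long non-coding RNA genes 36.6% (34.3% to 38.9%). The shares were also taken by the number of sites in the gene. With 2 to 4 sites it was 19.8% in pseudogenes and 23.2% in protein-coding genes, and the first interval, 13.8% to 27.7%, included the second value. With 5 to 9 sites it was 19.9% (14.2% to 27.1%) against 32.5% (31.6% to 33.3%). With 10 or more sites it was 32.4% (27.6% to 37.6%) against 38.5% (38.1% to 38.8%). A lower share of sites thus appeared in each class, with intervals apart in the upper 2, but these intervals treat partnered sites as independent. Counted by gene, 25.5% of pseudogenes with 2 to 4 sites had a pair (15.3% to 39.5%), against 29.2% of protein-coding genes. With 5 to 9 sites it was 50% (31.4% to 68.6%) against 70.7%. With 10 or more it was 95% (76.4% to 99.1%) against 96.3%. That last class has no upper limit, so it was not matched for sites per gene.

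**Figure D4:**
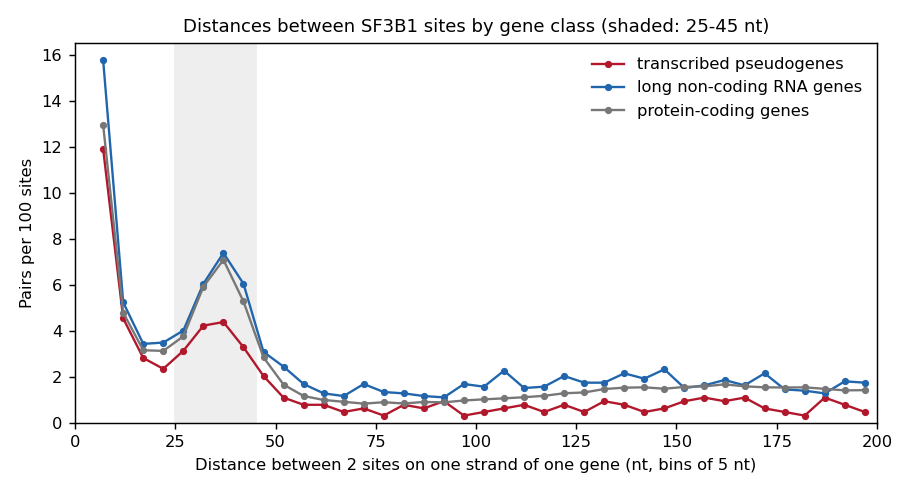
Number of site pairs per 100 sites (vertical axis) by the distance between the 2 sites on one strand of one gene (horizontal axis, nt, bins of 5 nt) in transcribed pseudogenes (red), long non-coding RNA genes (blue) and protein-coding genes (grey); the shaded band is 25 to 45 nt. The red line has its local peak inside the band, at 4.39 pairs per 100 sites, and lies below the other lines there.

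Paired sites were spread over many pseudogenes. A pair 25 to 45 nt apart was present in 43 of the 127, and in 19 of the 20 with the most sites, the exception being NSUN5P1. Linking sites at most 60 nt apart gave 450 clusters, of which 322 (71.6%, 95% Wilson interval 67.2% to 75.5%) were single sites, against 63.2% in protein-coding genes. The largest clusters held 5 sites, in ABO and NSUN5P1. Clusters of exactly 2 elements with centres 25 to 45 nt apart, here called paired footprints, numbered 49 in 34 pseudogenes. The distance between the elements had a median of 36.0 nt. Upstream elements held 66 sites and downstream elements 59. ABO had 6 of the paired footprints, among them chr9:133262180-133262222 with 3 sites and chr9:133260482-133260524 with 2. ZNF767P, ZNF37BP and AHSA2P had 3 each.

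Sites leaned towards the 3′ end, with the direction taken from the strand that holds the sites. In the 44 pseudogenes with at least 5 sites, 288 of 479 sites lay in the downstream 50% of the span, or 60.1% (95% Wilson interval 55.7% to 64.4%), against 63.1% in protein-coding genes and 46.4% in long non-coding RNA genes. The last 10% of the span held 68 sites and the first 10% held 44. The share in the first 10%, 9.19% (6.91% to 12.1%), lay above the 4.86% of protein-coding genes and below the 17.5% of long non-coding RNA genes. Of the sites in the first 10%, 8 lay in 1 stretch of ZNF37BP and 7 in 1 stretch of ASNSP1. Such sites are not independent, which the interval does not take into account. By pseudogene, 17 had more sites in the last 10% and 12 in the first. The stretch without sites was longer at the 5′ end in 26 of the 44 and at the 3′ end in 18, with medians of 6070 and 2385 nt.

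Every pseudogene with at least 2 sites kept to one strand. Of the 638 sites, 347 lay on the plus and 291 on the minus strand. Of the 91 pseudogenes with at least 2 sites, 0 had sites on both strands, and the 36 with a single site could not. Sites inside protein-coding or long non-coding RNA genes had been left out whatever their strand. Among the 44 pseudogenes holding 5 or more sites, the commoner strand of each carried 479 of 479 (95% Wilson interval 99.2% to 100%). Since the gene table gives no strand, whether the sites match the annotated strand of their pseudogene was not tested.

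Across chromosomes, chromosome 1 held the most of these sites, 72, or 11.3%, close to its share of the whole list, 12.9%. Chromosome 7 held 61 sites, 9.56% against 5.55% of the list, and it carries 7.97% of the transcribed pseudogenes. Chromosome 22 held 33, 5.17% against 1.91% of the list, and it carries 3.86% of the transcribed pseudogenes. Chromosome 15 had the largest number of pseudogenes with a site, 14, and chromosome 7 followed with 13. Chromosome 15 has 93 transcribed pseudogenes. Chromosome 18 had 11 transcribed pseudogenes and 0 sites in them, and chromosome 4 had 6 sites, all in SEPTIN7P14.

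The 107 pseudogenes with fewer than 10 sites held 308 sites, and their median span, 26394 nt, was close to that of the 20 above, 29824 nt. Paired footprints occurred among them too, for example in GLUD1P3, in SBDSP1, a copy of a ribosome maturation gene, at chr7:72831545-72831581, and in PI4KAP2 at chr22:21487927-21487968. Counted under 2 pseudogenes were 3 sites, in the overlapping annotations of PARGP1, of BMS1P4 and of FRG1HP with PGM5P2. A further 20 of the 638 sites also lay in a gene of another biotype, including the 7 sites of BMS1P20, which lies inside the immunoglobulin lambda locus.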

How the data were processed

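iCLIP of SF3B1 in K562 cells was represented by 1 merged list of 5 nt sites. Per the file headers, the authors kept sites reproduced by all replicates of either condition. The deposited score was 0 in every row, so sites were not ranked. The submitters' processing notes name STAR 2.7.3a and 2.6.1b, UMI-tools 1.0.0, FastQC 0.11.8, bedtools 2.27.1 and GRCh38 (p10 and p12) without roles. The site caller and the treatment of reads with several matches are not given in the sources used here, and the depth is unknown.

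Positions were made 1-based, and the centre of a site decided its gene. Gene spans and biotypes came from RefSeq, assembly GRCh38.p14. A site in several classes counted for protein-coding genes first, then long non-coding RNA genes, then transcribed pseudogenes. Named are the 20 pseudogenes with the most sites and, as examples, members of the gene lists; others, the snoRNA genes and the coding relatives of pseudogenes with no namesake were chosen after their values were seen. The members and lists were chosen with earlier results of these data known. Shares have 95% Wilson intervals, and no test was run. One gene list as a whole and some members of others are not reported here. The planned base composition was not computed, since no genome was used. Gene assignment and pair counting were tested on simulated data and by direct search. Counting was done in pandas 2.3.3 and NumPy 2.4.6 under Python 3.11.15, intervals in SciPy 1.17.1 and plots in matplotlib 3.10.9.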

Additional observations from a re-analysis of the deposited data

How the results depend on the processing

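Of 22 recalculations of 7 results, 19 stayed within 1.5 times the reported count or inside the reported interval. Counting only pseudogenes with no overlap with a protein-coding or long non-coding RNA gene, an alternative chosen after seeing the data, left 82 of the 127 with a site, since fewer pseudogenes were counted. The narrower span of 31 to 41 nt lowered the share of sites with a partner to 16.5%, since fewer distances count. Requiring at least 5 sites in the namesake lowered its share to 62.5%. The site number lay between 584 (1 site per region number of the list) and 638, the share with a partner was 23.8% without ABO, and the ratio of near to next pairs was 3.19 without ABO and 2.88 with 1 site per region number. The base composition was not run. No paired analysis was possible because replicates are merged into 1 set of sites, and for the same reason none could be left out in turn. With no read numbers, 0 sites in a gene cannot be told from RNA too rare to yield a reproducible site.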
